A study of Mus musculus with 6 samples.

Results

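A set of 9 transcription regulators of retinal ganglion cells was followed across cell types and genotypes: Ebf1, Ebf2, Ebf3, Irx2, Irx3, Irx5, Klf7, Eya2 and Myt1. They were listed by name, with earlier results of these data known, and make up 9 of the 27998 genes in the deposited count matrix. Counts of them beside all genes are therefore a description and no test of the list. Retinas of E14 (embryonic day 14) mice were dissociated and sequenced as single cells in droplets, where each captured transcript is counted once through its unique molecular identifier (UMI). The series compared 3 genotypes with 2 libraries each, at the same age. The first group, Bax null, lacked Bax, and its title named no change of Atoh7, which had UMIs in both of its libraries. The second, Bax het Atoh7 null, lacked Atoh7 and kept 1 copy of Bax. The third, Bax null Atoh7 null, lacked both genes and is called double null here. All 3 groups carried at least 1 mutant copy of Bax, so no group had both genes intact. The labels named neither the alleles nor a strain, and did not say whether the 2 libraries of a group came from separate embryos, so the p-values below measure the spread between libraries.

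Retinal ganglion cells are the first neurons born in the retina and the only ones whose axons leave the eye. Their formation depends largely on Atoh7, a basic helix-loop-helix activator of neurogenic progenitors, and proceeds through factors such as Pou4f2 and Isl1. Bax is an effector of programmed cell death that removes many young ganglion cells. The Ebf genes encode helix-loop-helix proteins of early B-cell factor type that act in differentiating neurons. The Irx genes encode Iroquois homeodomain proteins and lie in clusters on their chromosomes. Klf7 is a zinc finger factor with a role in axon growth, Eya2 is a transcriptional coactivator with phosphatase activity that partners homeodomain proteins of the sine oculis family, and Myt1 is a zinc finger factor that acts in neuronal differentiation.

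The genes lay on 7 chromosomes (GRCm38, GENCODE vM21). Irx3 (chr8:91798525-91802067, minus strand) and Irx5 (chr8:92357625-92376286, plus strand) were neighbours in 1 Iroquois cluster, with starts 556 kb apart. Irx2 (chr13:72628820-72634198, plus strand) was in the other cluster, 665 kb from Irx1. Ebf1 (chr11:44617317-45008091, plus strand), Ebf2 (chr14:67233292-67430918, plus strand) and Ebf3 (chr7:137193673-137314445, minus strand) were on separate chromosomes, as was Klf7 (chr1:64029447-64122282, minus strand). Eya2 (chr2:165595032-165771727, plus strand) and Myt1 (chr2:181763332-181827797, plus strand) shared a chromosome. The 250 bases before a RefSeq start site (GRCm38.p6) were matched for 6 of the 9 genes, and Ebf2, Irx5 and Eya2 had no entry. For Irx2, Ebf3 and Myt1 a window ended at the base before the GENCODE start of the gene, and these 3 are shown, for Myt1 the first of 3 windows. For Irx3, Ebf1 and Klf7 the RefSeq start lay inside the GENCODE bounds of the gene, so their windows are not shown. The 3 genes shown differ in the results below, where Irx2 had a large change in ganglion cells, Ebf3 a small one and Myt1 none that was called. Each is written 5′ to 3′ on the strand of its gene, and capitals mark an E-box, the type of 6-base site that basic helix-loop-helix factors bind.
Irx2, chr13:72628570-72628819, plus strand: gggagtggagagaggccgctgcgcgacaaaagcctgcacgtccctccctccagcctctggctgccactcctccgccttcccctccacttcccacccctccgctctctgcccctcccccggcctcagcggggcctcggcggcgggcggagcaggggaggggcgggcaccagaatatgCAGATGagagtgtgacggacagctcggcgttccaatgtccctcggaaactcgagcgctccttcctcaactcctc
Ebf3, chr7:137314446-137314695, minus strand: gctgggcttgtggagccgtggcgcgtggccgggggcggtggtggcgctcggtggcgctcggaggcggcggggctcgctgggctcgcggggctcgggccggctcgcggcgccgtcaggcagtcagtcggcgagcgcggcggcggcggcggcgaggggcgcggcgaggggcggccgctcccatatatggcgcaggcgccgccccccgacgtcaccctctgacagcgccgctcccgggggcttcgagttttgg
Myt1, chr2:181763082-181763331, plus strand: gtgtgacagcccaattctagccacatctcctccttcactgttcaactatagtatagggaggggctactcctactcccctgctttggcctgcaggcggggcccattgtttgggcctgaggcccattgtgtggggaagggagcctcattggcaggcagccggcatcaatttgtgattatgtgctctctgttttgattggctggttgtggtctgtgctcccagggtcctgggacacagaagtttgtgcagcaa
Both strands were searched for the E-box form CAGATG, with CAGCTG as another form and CAGGTG as the last. The promoter of Irx2 held 1 CAGATG, whose first base was at position -74 from the start site. The windows of Ebf3 and Myt1 held none of these forms, which says only that these letters are not in those windows. Across 32851 mouse promoters of the same length, CAGCTG was present in 13.0%, CAGATG in 14.4%, CAGGTG in 17.2% and any of the 3 in 38.1%. The base composition differed among the 3, with 68.4% G and C for Irx2, 80% for Ebf3 and 54.8% for Myt1, beside a median of 52.4% over all promoters.

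The 6 libraries held 67050 cells with 22463515 to 66594431 UMIs per library. The authors' table placed them in 5 cell types and 142 clusters, with 7357 cells called ganglion cells, 12857 neurogenic cells, 40882 progenitor cells, 3292 cones and 2662 horizontal cells. Atoh7 had 0 UMIs in all 4 Atoh7-null libraries, which allows up to 3 UMIs in each, and 376 and 458 UMIs in the Bax null libraries. Bax was at 144 and 108 CPM (UMI counts scaled to the total of the library) in the libraries with 1 copy of it, at 17.1 and 15.0 CPM in Bax null, and at 47.7 and 11 CPM in the libraries labelled double null 1 and 2, so the Bax of replicate 1 went against its label. The double-null libraries shared 2596 cell barcodes, of which 89.4% had the same cell type in both, against 126 to 223 shared barcodes and 34.3% to 46.0% with the same type in the other 14 pairs of libraries. The Bax null libraries stood apart in depth, with medians of 5578 and 6683 UMIs per ganglion cell against 1833.5 to 2624 in the other 4, and in mitochondrial share, with 3.80% and 3.90% against 1.06% to 1.15%. Library preparation and genotype cannot be told apart for any comparison with the Bax null group.

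The ganglion label was checked against 10 markers (Pou4f2, Pou4f1, Isl1, Sncg, Gap43, Nefl, Nefm, Stmn2, Elavl4 and Rbpms), all of which had UMIs in every library. Their summed level was 15857 to 16823 CPM in Bax null, 7806 to 9092 in Bax het Atoh7 null and 8083 to 9303 in double null. The summed markers of other cell types within the label moved the other way, but not every single marker followed its sum. Rxrg, a cone marker, was at 18.5 and 20.6 CPM in Bax null and at 1.73 and 0.366 CPM in double null. Onecut1, a horizontal marker, was at 22.6 and 26.7 CPM in Bax null and at 17.3 and 13.5 CPM in double null. The 7 cone markers summed to 126 to 154 CPM in Bax null against 567 to 650 in Bax het Atoh7 null and 433 to 465 in double null. The 5 amacrine markers summed to 16.2 to 16.6, 113 to 114 and 87.3 to 111 CPM, with Tfap2c at 0 in both Bax null libraries and Tfap2a, Tfap2c and Ptf1a at 0 in double-null replicate 2. The sums of the 4 horizontal markers (668 to 672, 1072 to 1130 and 1132 to 1167 CPM, with Lhx1 at 0 in 4 libraries), the 9 neurogenic markers (1340 to 1362, 1693 to 2039 and 1767 to 1822 CPM) and the 8 progenitor markers (622 to 828, 1062 to 1146 and 1056 to 1364 CPM) were likewise lowest in Bax null. Hemoglobin transcripts were the reverse, at 1018 to 1188, 12.5 to 76.2 and 2.93 to 159 CPM. The part of these differences in the levels of the 9 genes was not tested. The horizontal label was mixed, since its cells carried 1083 to 1505 CPM of amacrine markers beside 1521 to 1793 CPM of horizontal markers.

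Levels below are CPM of the cell type's total in a library, after TMM scaling (trimmed mean of M values) within that type. They are compared within a gene, since 3′ counts are not scaled to transcript length, and cell types are compared as a description because the authors' types were built from the same cells. In Bax null, 8 of the 9 genes had their highest mean level in ganglion cells, and for 7 of the 8 the 2 libraries did not overlap the next type. Ebf2 was the exception, at 11.1 and 9.94 CPM in ganglion cells and 8.45 ± 3.51 CPM in the horizontal label, which overlapped (SD, n = 2). For Ebf1 the mean was 2385 ± 78.7 CPM in ganglion cells (SD, n = 2), 5.27 times the 453 ± 58.7 CPM of cones, and it fell through 164 ± 22.6 CPM in the horizontal label and 65.4 ± 4.68 CPM in neurogenic cells to 11.3 ± 0.676 CPM in progenitor cells. For Irx3 the step was larger, from 127 ± 8.87 CPM in ganglion cells to 4.34 ± 0.371 CPM in neurogenic cells, a 29.2-fold difference, while cones and the horizontal label overlapped.

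In at least 1 group, 3 of the genes had their highest mean in cones or neurogenic cells. Ebf1, Klf7 and Myt1 were also found in cones, at means of 453, 231 and 34.0 CPM in Bax null. The cone label of Bax null also carried 1752 to 1870 CPM of summed ganglion markers and 1528 to 1736 CPM of hemoglobin transcripts. The part of transcripts from other cells in the cone levels was not tested. Irx5, the neighbour of Irx3, was also found in cones, with 43.1 and 51.5 CPM in Bax null beside 120 and 144 CPM in ganglion cells. In the Atoh7-null groups cones were its highest type, at 29.9 and 39.8 CPM with 1 copy of Bax and at 49.9 and 64.2 CPM in double null. Irx3 stayed between 0.729 and 3.78 CPM in cones of all 6 libraries. Eya2 was the gene whose highest mean was not in ganglion cells, with 95.0 and 76.3 CPM in neurogenic cells of Bax null beside 82.0 and 85.1 CPM in ganglion cells, and these ranges overlapped. Ebf2 in cones was at 9.80 and 6.72 CPM in Bax null, just below its ganglion cells, and at 15.5 to 24.0 CPM in the Atoh7-null groups, above their ganglion cells (2.76 to 6.95 CPM). In progenitor cells the genes were low, at 0.155 to 0.473 CPM for Irx2, 0.599 to 1.05 CPM for Irx3, 0.0338 to 0.509 CPM for Ebf2 and 0.439 to 1.37 CPM for Myt1. Klf7 was at 23.4 to 36.6 CPM there, against 632 to 774 CPM in ganglion cells.

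**Figure D1:**
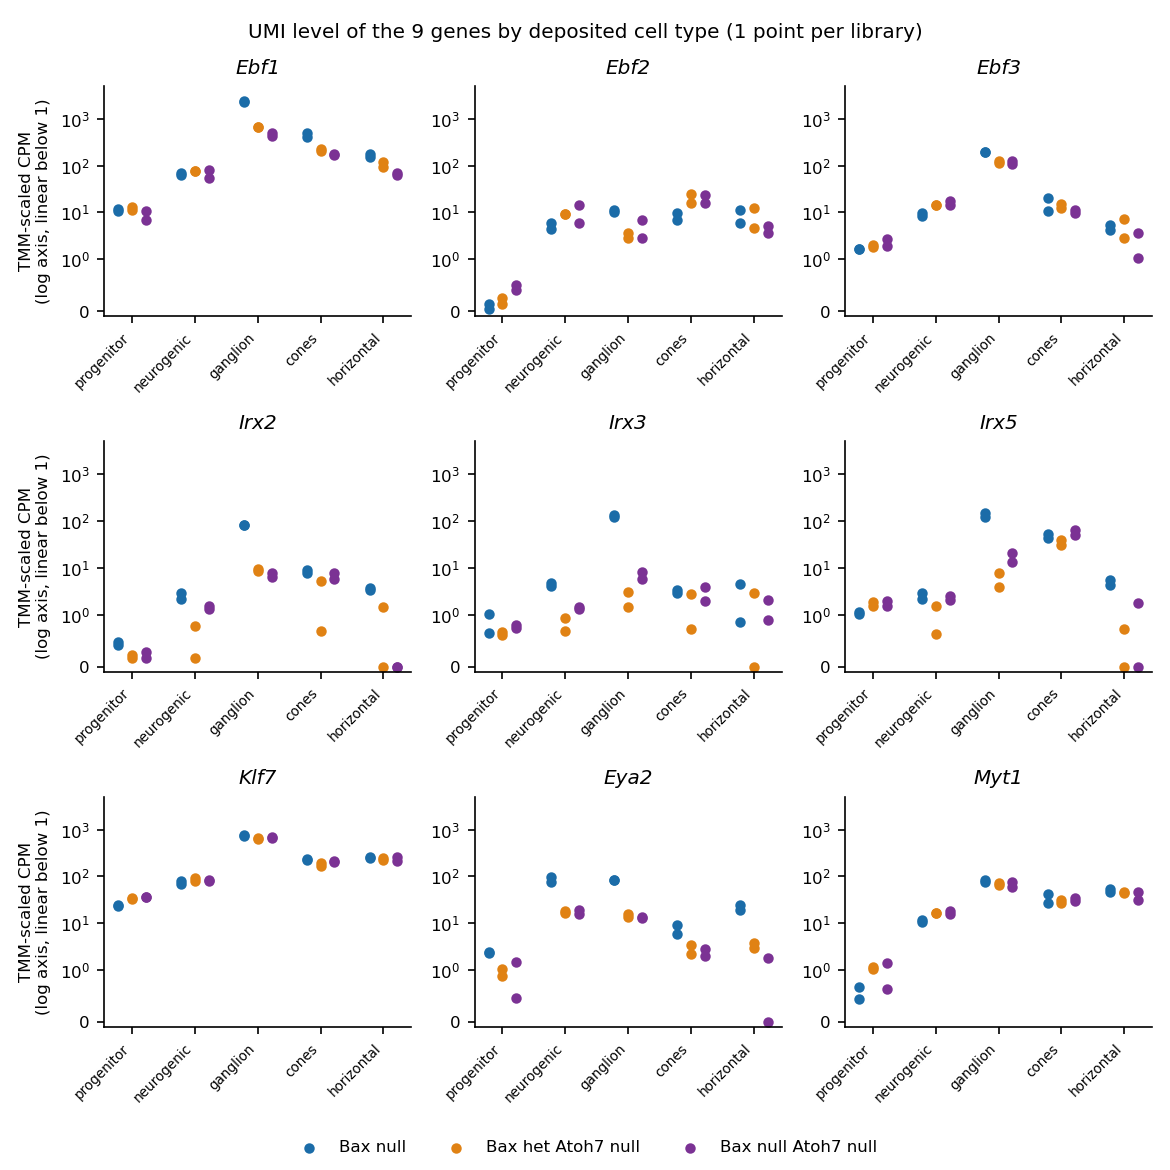
Levels of the 9 genes (TMM-scaled CPM, log axis that is linear below 1) in the 5 deposited cell types, with 1 point per library coloured by genotype. Ebf1 in ganglion cells lies at 2329 and 2440 CPM in Bax null and at 435 to 673 CPM in the other 4 libraries, and Irx5 in cones lies at 29.9 to 64.2 CPM in all 6.

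The comparison of double null with Bax null addressed Atoh7 loss where Bax is absent. In ganglion cells, 7 of the 9 genes were called lower in double null (edgeR quasi-likelihood test, adjusted p under 0.05) and none was called higher, where 52.7% of the 10586 genes tested were called and 26.5% of those tested were called lower. The median log2 fold change was -2.37 over the 9 genes and 0.02 over all genes. Of the 9, Ebf1, Irx2, Irx3, Irx5 and Eya2 were called and at least 4-fold lower, as were 3% of all genes. These shares describe a list chosen with earlier results of these data known, and do not test it.

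The 3 Irx genes differed most. Irx3 was at 121 and 133 CPM in the Bax null libraries, at 1.44 and 2.96 CPM in Bax het Atoh7 null, then at 5.87 and 8.04 CPM in double null, from 3 to 22 UMIs in each Atoh7-null library. All 4 Atoh7-null libraries lay far below both Bax null libraries. In double null Irx3 was 18.2-fold lower than in Bax null (log2 fold change -4.19 ± 0.17 SE, adjusted p = 1.47e-09). Irx2 was at 81.4 and 82.4 CPM in Bax null, 9.59 and 8.55 in Bax het Atoh7 null and 7.59 and 6.22 CPM in double null. Its groups did not overlap, and the fold against Bax null was 11.8 (log2 fold change -3.56 ± 0.15 SE, adjusted p = 2.77e-09). Irx5 was at 120 and 144 CPM in Bax null, 3.83 and 7.89 in Bax het Atoh7 null and 13.5 and 20.5 CPM in double null. It too was below both Bax null libraries in every Atoh7-null library, and fell 7.82-fold in double null (log2 fold change -2.97 ± 0.18 SE, adjusted p = 6.53e-08).

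Within the Ebf family the size of the change differed among its members. Ebf1 was at 2329 and 2440 CPM in Bax null, 662 and 673 in Bax het Atoh7 null and 489 and 435 CPM in double null. No library of a group overlapped another group, and double null was 5.16-fold lower than Bax null (log2 fold change -2.37 ± 0.12 SE, adjusted p = 1.17e-08). Ebf3 was at 192 and 198 CPM in Bax null, 115 and 127 in Bax het Atoh7 null and 109 and 122 CPM in double null. Both Atoh7-null groups lay below Bax null and overlapped each other, with a double-null log2 change of -0.75 ± 0.10 SE (adjusted p = 3.34e-05), which became -0.14 (adjusted p = 0.235) when class totals without TMM set the scale. Ebf2 was at 11.1 and 9.94 CPM in Bax null, 2.88 and 3.62 in Bax het Atoh7 null and 2.76 and 6.95 CPM in double null. Its log2 fold change of -1.13 ± 0.32 SE (adjusted p = 0.0092) rested on 8 and 19 UMIs in the double-null libraries, and it was no longer called without double-null replicate 1 (-0.60, adjusted p = 0.152), without TMM (-0.52, adjusted p = 0.175) or by DESeq2 (-1.14).

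Eya2 was at 82.0 and 85.1 CPM in Bax null, 15.3 and 13.8 in Bax het Atoh7 null and 13.8 and 12.8 CPM in double null. The Atoh7-null libraries formed a narrow band well below Bax null, with a 6.26-fold lower level in double null (log2 fold change -2.65 ± 0.13 SE, adjusted p = 9.98e-09). Klf7 and Myt1 differed from the others in that neither was called. Klf7 was at 729 and 774 CPM in Bax null, 632 and 662 in Bax het Atoh7 null and 671 and 698 CPM in double null (log2 fold change -0.14 ± 0.11 SE, adjusted p = 0.3). Myt1 was at 75.6 and 84.6 CPM in Bax null, 71.4 and 64.1 in Bax het Atoh7 null and 59.0 and 73.9 CPM in double null (-0.27 ± 0.12 SE, adjusted p = 0.0751), and passed the test only without double-null replicate 2 (-0.44) or on the other scales below.

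**Figure D2:**
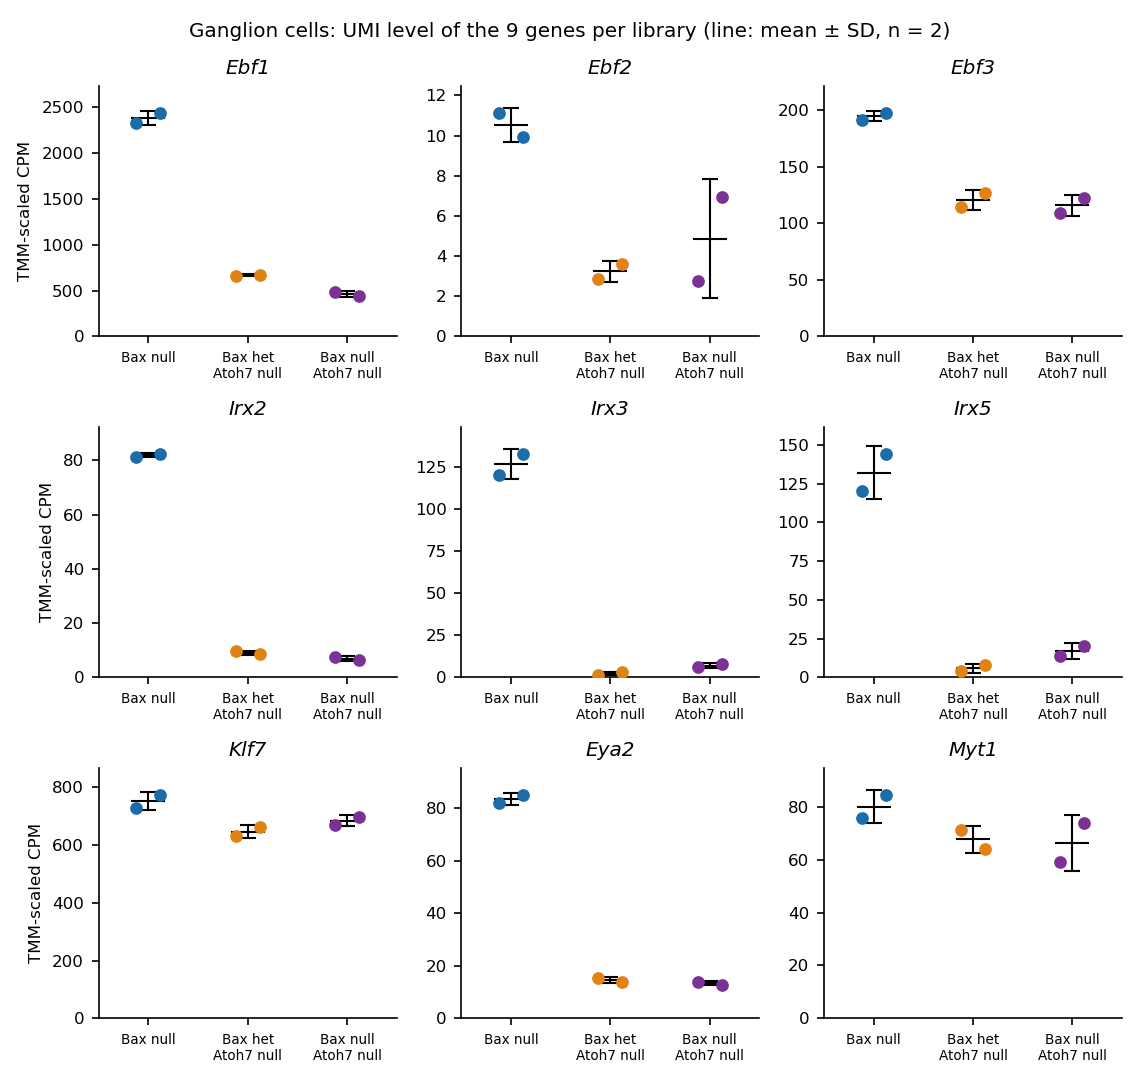
Levels of each gene in ganglion cells (TMM-scaled CPM, linear axes from 0), with 1 point per library and a line with bar for the mean ± SD of the 2 libraries of a group. Irx3 lies at 121 and 133 CPM in Bax null and at most at 8.04 CPM elsewhere, whereas Klf7 spans 632 to 774 CPM over all 6 libraries.

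The scale set by TMM bore on the 2 genes with small differences and on Ebf2 and Ebf3. The TMM factors of ganglion cells were 0.783 and 0.768 in Bax null and 1.08 to 1.21 in the other 4 libraries, and without them the median log2 fold change of all genes moved from 0.02 to 0.63 and the called genes went from 2776 higher and 2804 lower to 6440 higher and 981 lower. Without TMM, Klf7 was called higher in double null (0.48, adjusted p = 0.00135), as was Myt1 (0.34, adjusted p = 0.031), while Ebf1 (-1.76), Irx2 (-2.95), Irx3 (-3.58), Irx5 (-2.36) and Eya2 (-2.04) were still called lower. Another scale took the change in progenitor cells of the same libraries as reference. On it all 9 genes were lower and called in ganglion cells of double null, with log2 differences of -0.72 for Klf7 and -1.20 for Myt1, of -1.25 for Ebf3 and -3.51 for Ebf2, and between -1.42 (Eya2) and -4.06 (Irx3) for the other 5. The direction of Klf7 and Myt1 therefore depended on the scale, and that of the other 7 did not under these 3 scales.

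**Figure D3:**
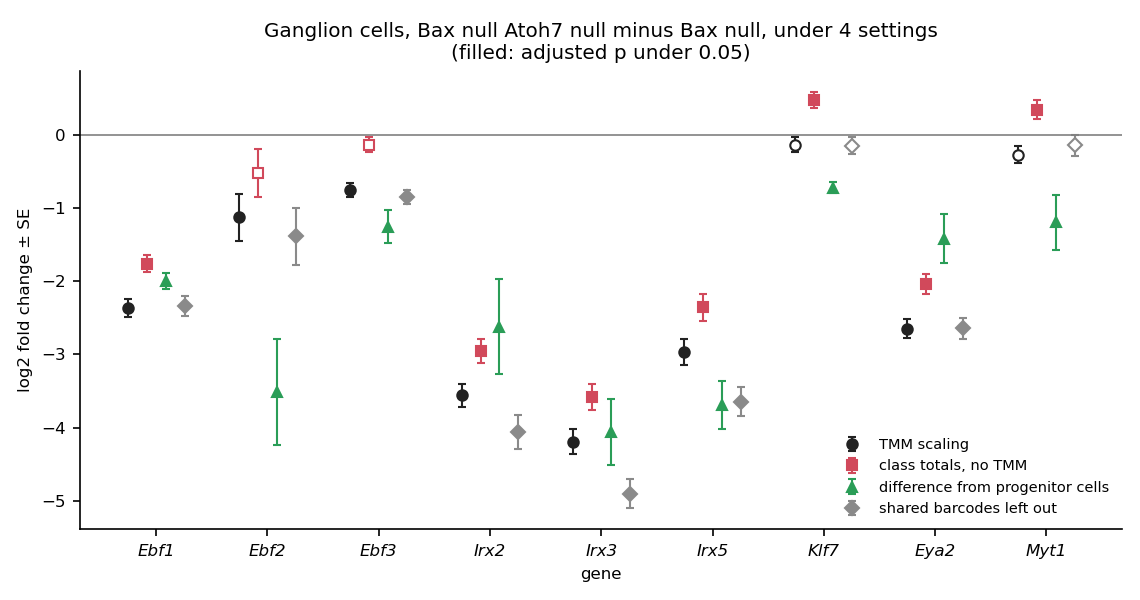
Log2 fold change ± SE of the 9 genes in ganglion cells of double null minus Bax null, under 4 settings, with filled symbols where the adjusted p was under 0.05. Klf7 and Myt1 change sign between settings (Klf7 -0.14 with TMM and 0.48 without), and Irx3 stays between -4.90 and -3.58.

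In the double-null libraries, the Irx genes were at higher levels in cells whose barcode occurred in both libraries. In double-null replicate 1, 237 of these cells stood beside 916 with barcodes not shared, and in replicate 2, 260 beside 878. Scaled to the UMIs of the cells concerned, Irx5 was at 35.4 and 37.5 CPM in shared cells against 10.2 and 10.8 CPM in the rest, Irx3 at 16.3 and 15.2 against 4.32 and 3.98 CPM, and Irx2 at 13.6 and 13.2 against 6.68 and 2.27 CPM. Ebf1 showed no such split in replicate 2 (439 against 429 CPM) and the opposite in replicate 1 (343 against 507 CPM). With shared barcodes left out, the log2 fold change from Bax null grew to -4.90 for Irx3, -4.05 for Irx2 and -3.64 for Irx5, and was -2.33 for Ebf1, -2.64 for Eya2, -1.39 for Ebf2 and -0.85 for Ebf3, all still called. The Irx values of the shared cells rested on 5 to 37 UMIs.

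Bax het Atoh7 null and Bax null differed in both genes, and shared the Bax null libraries with the comparison above. Here too 7 of the 9 genes were called lower in ganglion cells and none higher, where 50% of genes were called and 25% were called lower. The median was -1.84 over the 9 genes and 0.01 over all genes. Irx3 again had the largest change, which was -5.75 ± 0.22 SE on the log2 scale (adjusted p = 1.02e-09), where the lower group rested on 3 UMIs (1.44 CPM, 95% Poisson interval 0.297 to 4.2) and 9 UMIs. Irx5 followed with -4.40 ± 0.23 SE (adjusted p = 1.8e-08) and Irx2 with -3.19 ± 0.15 SE (adjusted p = 7.18e-09). Eya2 (-2.53, adjusted p = 2.24e-08), Ebf1 (-1.84, adjusted p = 1.28e-07), Ebf2 (-1.66, adjusted p = 0.00206) and Ebf3 (-0.68, adjusted p = 9.25e-05) were also lower. Klf7 (-0.22, adjusted p = 0.107) and Myt1 (-0.25, adjusted p = 0.108) were not called, and both were above 0 without TMM (0.28, adjusted p = 0.0369, and 0.24, adjusted p = 0.124), where Ebf3 was no longer called (-0.19, adjusted p = 0.119). Relative to progenitor cells both were called lower, Klf7 at -0.69 (adjusted p = 1.01e-08) and Myt1 at -1.19 (adjusted p = 0.0241). Klf7 was also called lower with only the 4 libraries compared (-0.21, adjusted p = 0.0219) and without double-null replicate 1 or 2 (-0.22, adjusted p = 0.0163 in both). Without TMM the called genes went from 2647 higher and 2650 lower to 5584 higher and 998 lower, and the median of all genes moved to 0.50.

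Double null and Bax het Atoh7 null differed in Bax where Atoh7 is absent. The Bax null libraries entered this difference only through the shared estimate of spread, the TMM scaling, and the choice of genes tested and adjusted over. Ebf1 alone among the 9 was called, lower in double null (-0.53 ± 0.12 SE, adjusted p = 0.0339), where 2.34% of genes were called and 2.10% were called lower. The call did not hold with shared barcodes left out (-0.48, adjusted p = 0.15), without TMM (-0.41, adjusted p = 0.0771), with only the 4 libraries compared (-0.53, adjusted p = 0.0802) or when any 1 of the Bax het Atoh7 null or Bax null libraries was left out (-0.54 to -0.51), and the difference relative to progenitor cells was -0.06. Irx3 and Irx5 were at higher levels in both double-null libraries than in both Bax het Atoh7 null libraries, with log2 fold changes of 1.56 ± 0.41 SE (adjusted p = 0.0847) and 1.44 ± 0.35 SE (adjusted p = 0.0519), and neither passed the test. Irx5 was called under 7 of 16 alternatives, with RLE size factors (adjusted p = 0.0497), by DESeq2 (0.00365), with the replicate block (0.00366), without TMM (0.0346), and without Bax null replicate 1 (0.0419), Bax null replicate 2 (0.0407) or double-null replicate 1 (0.00412), and the range over all 16 was 0.00365 to 0.512. Irx3 was called with the replicate block (0.0394) and without double-null replicate 1 (0.042). With shared barcodes left out these values were 0.86 and 0.78, with adjusted p of 0.58 and 0.47. Irx2 (-0.37), Eya2 (-0.12), Ebf3 (-0.07), Myt1 (-0.02), Klf7 (0.08) and Ebf2 (0.53) had adjusted p from 0.666 (Irx2) to 0.975 (Myt1). Of all genes called, 26 were higher and 222 lower with TMM, and 79 and 157 without.

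The share of ganglion cells with at least 1 UMI was compared after thinning each cell to 1000 UMIs, since depth per cell differed between groups. This left out 24 of 3343 ganglion cells in Bax null, none of 1723 in Bax het Atoh7 null and 136 of 2291 in double null. Ebf1 was found in 66.2% and 67.0% of Bax null ganglion cells, in 44.5% and 44.1% of those of Bax het Atoh7 null and in 38.3% and 36.7% of those of double null, against 0.812% to 1.47% of progenitor cells. Most ganglion cells of Bax null thus had Ebf1, and many did so without Atoh7. Before thinning the Ebf1 shares were 84.5% and 85.7%, 70.3% and 66.5%, and 55.8% and 52.6% in the same order. Irx3 was found in 6.36% and 6.56% of thinned Bax null ganglion cells, and in 0.0614% and 0.283% of those of Bax het Atoh7 null (Wilson 95% upper limits 0.689% and 0.830%) and 0.628% and 0.652% of those of double null, against 0.0454% to 0.0841% of progenitor cells. The share in Bax het Atoh7 null replicate 1 was within the progenitor range, so Irx3 was not detectable above background there.

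Irx2 went from 5.85% and 5.69% in Bax null to 0.890% and 0.672% in Bax het Atoh7 null and 0.862% and 0.480% in double null. Irx5 went from 6.35% and 7.21% to 0.357% and 0.684%, and to 1.51% and 1.72%. Eya2 went from 6.65% and 6.76% to 1.62% and 1.34%, and to 1.56% and 1.56%. These 3 genes were therefore in fewer cells of every Atoh7-null library, though above their progenitor shares of at most 0.0388%, 0.235% and 0.163%. Klf7 shares were higher in the Atoh7-null groups, at 45.8% to 51.0% against 40.3% and 41.4%, as were those of Myt1, at 6.71% to 9.13% against 5.63% and 6.27%. Ebf3 shares overlapped among the groups, at 10% to 12% in all 6 libraries. Thinned shares follow class totals without TMM, and on that scale 6440 genes were called higher and 981 lower in double null against Bax null. The higher shares of Klf7 and Myt1 and the overlap of Ebf3 carry that limit.

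In neurogenic cells, the progenitors leaving the cell cycle from which ganglion cells arise, the 9 genes did not move together. Between double null and Bax null, 2 of the 9 were called lower and 3 higher, where 47.3% of 11670 genes were called, 23.8% lower and 23.5% higher. Eya2 was at 95.0 and 76.3 CPM in Bax null, 16.8 and 18.1 in Bax het Atoh7 null and 19.5 and 15.5 CPM in double null, with a double-null log2 change of -2.28 ± 0.14 SE (adjusted p = 2.98e-07). Both Atoh7-null groups lay below Bax null. Irx3 was at 4.08 and 4.61 CPM in Bax null against 0.674 to 1.46 CPM in the other 4 libraries (-1.63, adjusted p = 0.00157, and -1.49 relative to progenitor cells, adjusted p = 0.0753). Ebf3 (9.86 and 8.29 CPM against 14.6 and 17.2 CPM in double null, 0.81, adjusted p = 0.00194), Myt1 (11.7 and 10.4 against 15.5 and 18.1 CPM, 0.60, adjusted p = 0.0069) and Ebf2 (5.78 and 4.42 against 5.85 and 14.5 CPM, 0.96, adjusted p = 0.0379) were called higher. Relative to progenitor cells none of these 3 was called, and Ebf2 (-1.47) and Myt1 (-0.32) changed sign. Ebf2 was also not called when any 1 library other than double-null replicate 1 was left out (0.21 without double-null replicate 2), and Myt1 was not called by DESeq2 or without Bax null replicate 2.

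Ebf1 was at 68.7 and 62.1 CPM in neurogenic cells of Bax null, 77.5 and 75.3 in Bax het Atoh7 null and 79.3 and 55.2 CPM in double null. Its groups overlapped and the fold change in double null was not called (0.05 ± 0.14 SE, adjusted p = 0.788), but it was called higher relative to progenitor cells (0.43, adjusted p = 0.0246) and without TMM (0.64, adjusted p = 0.000945). Klf7 (67.0 to 92.0 CPM over the 6 libraries, 0.18) was not called either, but was at 0.77 without TMM (adjusted p = 0.00013) and at -0.41 relative to progenitor cells (adjusted p = 0.00153). Irx2 and Irx5 were at 0.168 to 2.95 CPM in neurogenic cells of all 6 libraries and were not called in this comparison. Without TMM the called genes went from 2743 higher and 2775 lower to 7056 higher and 824 lower in neurogenic cells.

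For Bax het Atoh7 null against Bax null in neurogenic cells, 47.1% of genes were called, 23.8% lower and 23.4% higher, and Eya2 (-2.29), Irx3 (-2.41), Irx2 (-2.38) and Irx5 (-1.21) were called lower and Ebf3 (0.69) and Myt1 (0.59) higher. The Irx2 and Irx5 values rested on at most 2.95 CPM in any library, and Irx5 was not called by DESeq2, after thinning, without TMM, or without Bax null replicate 1, Bax null replicate 2 or Bax het Atoh7 null replicate 2. Relative to progenitor cells Irx2 (-1.25, adjusted p = 0.504), Ebf3 (0.45, adjusted p = 0.392) and Myt1 (-0.37, adjusted p = 0.653) were not called, and Ebf3 and Myt1 were also not called without Bax null replicate 2, nor Myt1 by DESeq2. Ebf2 was called higher without TMM (1.35, adjusted p = 0.00412), with no filter, with only the 4 libraries compared and without double-null replicate 1 or 2, and Ebf1 without TMM (0.74, adjusted p = 0.000327), with only the 4 libraries compared and without double-null replicate 1. Between double null and Bax het Atoh7 null none of the 9 genes was called in neurogenic cells by edgeR or by DESeq2, where edgeR called 1.77% of genes and 1334 of the 11670 had an unadjusted p under 0.05.

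Whether the genotype difference in ganglion cells departed from that in neurogenic cells was tested as an interaction within libraries, a quantity that does not depend on the TMM scale in the same way (the median of all genes was 0.02 with TMM and 0.02 without). For double null against Bax null, 8 of the 9 genes were called, all lower in ganglion cells, where 16.7% of 12348 genes were called and 8.72% were called lower. The log2 difference of differences was -2.86 for Irx5, -2.66 for Irx2, -2.57 for Irx3, -2.41 for Ebf1, -2.10 for Ebf2, -1.55 for Ebf3, -0.88 for Myt1 and -0.30 for Klf7. Eya2 was the exception, at -0.36 ± 0.21 SE (adjusted p = 0.274). In neurogenic cells Irx2, Irx3 and Irx5 reached at most 2.95, 4.61 and 2.83 CPM in any library, so the neurogenic side of their values rested on low levels. When the classes were thinned to equal totals the calls of Irx3, Myt1 and Klf7 were lost, and that of Klf7 was also lost by DESeq2 and without Bax null replicate 2. For Bax het Atoh7 null against Bax null, 7 of the 9 genes were called, all lower in ganglion cells, where 16.2% of genes were called and 9.09% were called lower, and Eya2 (-0.28, adjusted p = 0.434) and Irx2 (-0.85 ± 0.74 SE, adjusted p = 0.511) were not. Thinning there ended the calls of Irx5, Klf7 and Myt1, and leaving out Bax het Atoh7 null replicate 1 those of Irx5 and Klf7. For double null against Bax het Atoh7 null none of the 9 was called, where 0.0243% of genes were called and 701 had an unadjusted p under 0.05, and DESeq2 called no gene.

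**Figure D4:**
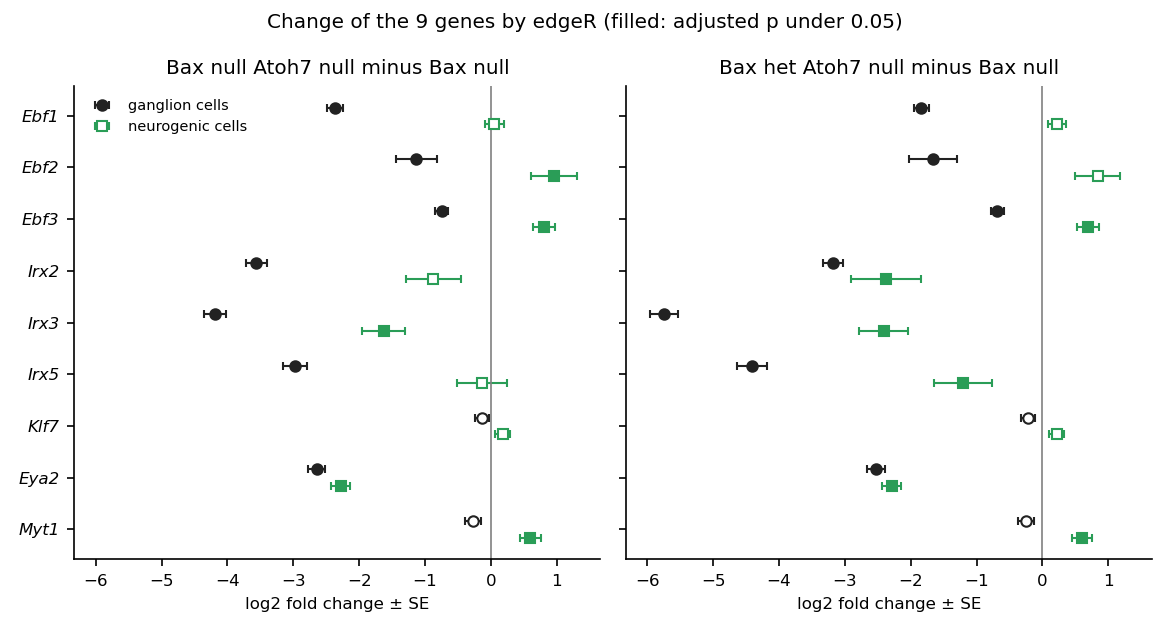
Log2 fold change ± SE (edgeR) of each gene in ganglion cells and in neurogenic cells, for double null minus Bax null and for Bax het Atoh7 null minus Bax null. Filled symbols mark an adjusted p under 0.05. For double null minus Bax null, Ebf1 lies at -2.37 in ganglion cells and at 0.05 in neurogenic cells, while Eya2 lies at -2.65 and -2.28.

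The ganglion label held 20 deposited clusters, of which 19 had at least 100 cells (7265 cells in all). Levels per cluster were summed over the 6 libraries, which contributed unequally. They are given as CPM of the cluster total, scaled with the TMM factors of the ganglion label, as a description. Ordered by Sncg, a synuclein that marks ganglion cells, the genes fell into different positions. Irx3 and Irx5 peaked in the cluster with the most Sncg (cluster 121), at 569 and 507 CPM, and were at 0 and 1.56 CPM in the cluster with the least. Ebf1 was present throughout, from 138 CPM in cluster 44 to 3692 CPM in cluster 121. Ebf3 rose from 15.3 to 361 CPM. Irx2 and Myt1 were highest in the middle of the order (cluster 67, 157 and 118 CPM), and Klf7 in cluster 9 (1061 CPM). Eya2 and Ebf2 were highest in clusters 44 and 92 near the low end, at 208 and 165 CPM for Eya2 and 27.0 and 23.9 CPM for Ebf2.

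Over the 19 clusters, Pearson's r with Sncg was 0.95 for Ebf3, 0.93 for Irx5, 0.92 for Ebf1, 0.79 for Irx3, 0.74 for Klf7, 0.56 for Irx2, 0.39 for Myt1, -0.01 for Eya2 and -0.03 for Ebf2. The clusters share libraries, differ in their mix of genotypes and were made from these genes among others. These values therefore describe the clusters and carry no test. Only clusters 9 and 63 had at least 90 cells in all 3 groups, a limit chosen after the data were seen. In cluster 9, Ebf1 was at 3293 CPM in 438 Bax null cells, 1054 CPM in 101 Bax het Atoh7 null cells and 719 CPM in 97 double-null cells. In cluster 63 the same order held, at 1766, 1007 and 631 CPM. The Ebf1 difference was thus also present among cells that the authors had placed in 1 cluster.

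Ebf3 had the reverse order in these clusters, at 201, 289 and 298 CPM in cluster 9 and 117, 224 and 194 CPM in cluster 63, against its lower TMM-scaled level in the whole label. Irx2 was at 125, 46.1 and 13.0 CPM in cluster 9 and 39.7, 2.71 and 3.95 CPM in cluster 63. Eya2 was at 58.1, 21.9 and 19.4 CPM, and at 37.8, 24.4 and 13.2 CPM. Irx2 and Eya2 were thus highest in Bax null within both clusters, although the Atoh7-null values rested on 2 to 19 UMIs. Irx5 was at 45, 7.29 and 32.4 CPM in cluster 9, a smaller step from Bax null to double null than in the whole label, and at 18.9, 1.36 and 7.91 CPM in cluster 63, from 1 to 10 UMIs in the Atoh7-null groups. Irx3 was at 28.3, 7.29 and 13.0 CPM in cluster 9 (58, 3 and 4 UMIs) and at 3.78, 1.36 and 2.64 CPM in cluster 63, where each group had 1 or 2 UMIs and no order can be read. Klf7 was at 1065, 1134 and 936 CPM in cluster 9 and 803, 896 and 918 CPM in cluster 63. These levels were scaled with the TMM factors of the whole ganglion label, and each is the sum of a group's 2 libraries, with counting error only.

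**Figure D5:**
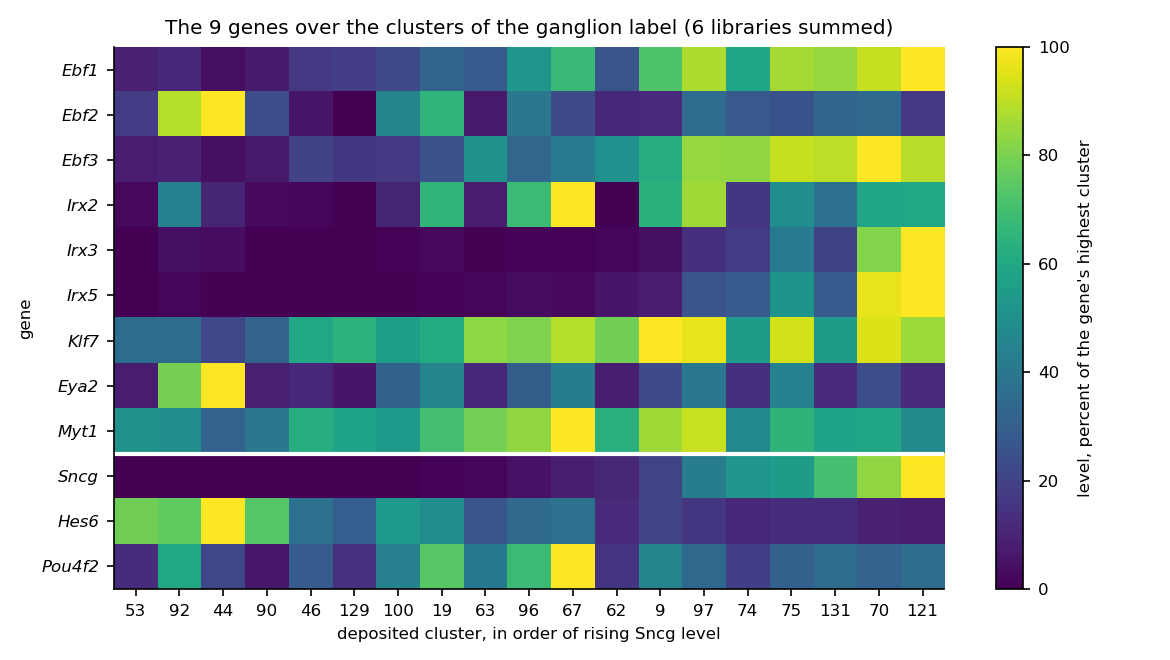
Level of each gene in the 19 deposited clusters of the ganglion label with at least 100 cells, in order of rising Sncg, as percent of the gene's highest cluster (colour), with Sncg, Hes6 and Pou4f2 for reference. Irx3 and Irx5 peak at the right end (569 and 507 CPM in cluster 121), and Eya2 and Ebf2 near the left end (208 and 27.0 CPM in cluster 44).

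Cells of the Bax null group showed which of the genes occurred together, without thinning. Irx5 was found in 72.6% and 79.3% of the ganglion cells with Irx3 (replicates 1 and 2) and in 8.77% and 8.95% of those without, while the median depth was 6988 and 8716 UMIs with Irx3 and 5291 and 6235.5 without. The neighbouring genes Irx3 and Irx5 were therefore largely in the same cells. Irx3 was in 28.0% and 33.7% of cells with Irx2 and 18.3% and 17.7% of cells without, a smaller difference. It was in 36.0% and 36.2% of cells with Ebf3 and 9.11% and 8.67% of cells without. Eya2 showed no such association, with Irx3 in 20.4% and 22.5% of cells with Eya2 and 21% and 22.5% of cells without, and Irx2 in 25.8% and 29.7% against 26.4% and 29.7%. Median depth was 6449 and 7713 UMIs with Ebf3 against 5029 and 5850 without. It was 5996.5 and 7369.5 with Irx2 against 5430 and 6362 without, and 5599.5 and 6719 with Eya2 against 5553.5 and 6680 without. The part of depth in these shares was not tested.

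Over the 138 deposited clusters with at least 100 cells, the genes whose levels followed each of the 9 most closely were listed as a description (Pearson's r of log2(CPM + 1), 9505 genes). Ebf1 was closest to Elavl4 (r = 0.96), an RNA-binding protein of neurons, followed by Stmn3 and Tubb2b. Ebf3 was closest to Elavl4 (0.91), Ebf1 (0.91) and Pou4f1 (0.91), a POU factor of ganglion cells. Klf7 was closest to Mllt11 (0.96) and Myt1 to Tubb3 (0.96), a neuronal tubulin. Irx2 was closest to Gm28511 (0.87), Arg1 (0.85) and Pou4f2 (0.84), Irx3 to Tmem27 (0.80) and Irx5 to Slc17a6 (0.84), the vesicular glutamate transporter of ganglion cells. Eya2 was closest to Dlx2 (0.86), Clvs1 (0.84) and Atoh7 (0.84), and Ebf2 to Clvs1 (0.85). Clusters share libraries and differ in depth and in their mix of genotypes. Atoh7 had no UMIs in the Atoh7-null libraries and Eya2 was lower there. The r of Eya2 with Atoh7 therefore cannot be told apart from the genotype mix of the clusters.

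Relatives of the 9 genes and other regulators of ganglion cells were read from lists of 13 and 27 genes. Of the relatives, 9 were tested in ganglion cells. In double null against Bax null 4 were lower and 1 higher, with a list median of 0.08 beside 0.02 over all genes. Of all genes tested, 52.7% were called and 26.5% were called lower, so the relatives were called about as often as all genes. Those lower were Eya1, a paralogue of Eya2 (-2.39, adjusted p = 0.000134), Myt1l, a paralogue of Myt1 (-2.37, adjusted p = 1.01e-06), Zfp521, a zinc finger partner of Ebf proteins (-1.77, adjusted p = 7.2e-06), and Irx6, which lies beside Irx5 (-0.88, adjusted p = 0.00678), and Klf4 was higher (2.69, adjusted p = 8.09e-05). Myt1l was thus called where Myt1 was not, at 84.5 CPM in Bax null and 16.5 CPM in double null. With Bax het Atoh7 null set against Bax null, the same 4 were lower (Eya1 -2.83, Myt1l -2.70, Irx6 -1.56 and Zfp521 -1.50) and 3 were higher (Klf4 2.47, St18 1.03 and Zfp423 0.82), where 50% of all genes were called and 25% were called lower. Between the Atoh7-null groups none of the 9 was called, where 2.34% of all genes were called.

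Of the 27 regulators, which include ganglion, horizontal and cone markers, 22 were tested. In double null against Bax null 13 were lower and 5 higher, with a median of -0.58. Of all genes tested, 52.7% were called in this comparison and 26.5% were called lower. Those called lower included Rxrg (-4.16, from 5 and 1 UMIs in double null) and Zfhx3 (-1.43), and the 3 with the highest fold changes among those called were Neurod2, Sox4 (1.89) and Bhlhe22 (1.59). Neurod2 had 1 and 0 UMIs in the Bax null libraries against 27 and 30 in double null, so its fitted fold is not given. None of the 13 lower regulators other than Rxrg, which was at 19.5 CPM in Bax null, changed as much as Ebf1 or the 3 Irx genes. With Bax het Atoh7 null set against Bax null, 10 were lower and 5 higher, with a median of -0.27, where 50% of all genes were called and 25% were called lower. Between the Atoh7-null groups 1 was lower and none higher, where 2.34% of all genes were called and 2.10% were called lower.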

How the data were processed

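Per the labels, retinal cells of E14 mouse embryos were profiled with 10x Genomics 3′ v2 chemistry. The submitters' processing notes name Cell Ranger 1.2.1 and mm10. The authors deposited a matrix of unscaled UMI counts. Its sums equalled the totals in the authors' cell table in all 67050 cells used. The table held 2 further libraries with 26078 cells, which were not used here. Cell types and clusters were the authors', and no doublet caller was run, so doublets were not removed. Lowest UMIs per cell were 500 in the Bax null libraries and 735 to 1163 in the others.

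Counts were summed per library and cell type, giving 1913889 to 10906998 UMIs in ganglion cells and 4416522 to 14099758 in neurogenic cells. They were tested with edgeR 4.0.16 in R 4.3.3 (filterByExpr, TMM, quasi-likelihood fit of group over all 6 libraries, two-sided). The interaction fit had library, class and class by group. Benjamini-Hochberg adjustment ran over all genes tested, and a gene was called at an adjusted p under 0.05. SE is the log2 fold change divided by the square root of F. With 2 libraries in each group, exact permutation could not reach a p under 0.33. Alternatives were DESeq2 1.42.0, RLE size factors, genes left unfiltered, a replicate block, only the 4 libraries compared, thinning to the smallest class total, cells with at least 1000 UMIs, the difference from progenitor cells, and leaving out each library. Leaving out shared barcodes and using class totals without TMM were added after the data were seen. Shares were computed as the expectation under thinning to 1000 UMIs, with 1500 UMIs and no thinning as alternatives. Intervals cover counting error only. Gene positions came from GENCODE vM21 (27722 identifiers, 99.0%, matched).

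The 9 genes, the lists of 13 relatives and 27 regulators and the markers were chosen with earlier results of these data known. Named genes are the 9, the relatives called, the 3 highest and 3 lowest regulators called, and for each of the 9 the 3 genes with the highest r over clusters (at least 20 CPM in 1 cluster); a result for 1 regulator is not reported here. Replicate numbers did not pair the libraries: deviations of same-numbered libraries correlated from -0.02 to 0.28 in ganglion cells and from -0.17 to 0.37 in neurogenic cells.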

Additional observations from a re-analysis of the deposited data

Results flagged for a closer look

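For 8 of the 9 genes the change from Bax null to double null in ganglion cells differed from that in neurogenic cells of the same libraries, by the interaction test of edgeR, where 16.7% of the 12348 genes tested were called. The log2 difference between the 2 changes was -2.86 ± 0.43 SE for Irx5 (adjusted p = 5.71e-07), -2.66 ± 0.52 for Irx2 (adjusted p = 7.55e-05), -2.57 ± 0.49 for Irx3 (adjusted p = 4.83e-05) and -2.41 ± 0.09 for Ebf1 (adjusted p = 1.3e-29). It was -2.10 for Ebf2, -1.55 for Ebf3, -0.88 for Myt1 and -0.30 for Klf7. Among these 8, Klf7 had the smallest difference. The neurogenic side of the Irx2, Irx3 and Irx5 values rested on low levels, at most 2.95, 4.61 and 2.83 CPM in any library. When the classes were thinned to equal totals, the calls of Irx3, Myt1 and Klf7 were lost.

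The interaction was also called for 7 of the 9 genes between Bax null and Bax het Atoh7 null, which shares the Bax null libraries with the first comparison, where 16.2% of genes were called. Thinning ended the calls of Irx5, Klf7 and Myt1 there. It was -3.42 ± 0.68 SE for Irx3 (adjusted p = 0.000129), -3.26 ± 0.62 for Irx5 (adjusted p = 5.91e-05), -2.52 for Ebf2, -2.09 for Ebf1, -1.40 for Ebf3, -0.88 for Myt1 and -0.46 for Klf7. An adjusted p under 0.05 still admits false calls in proportion to the number of genes called, here 2067 and 1997 of 12348. The Bax null libraries differed from the others in depth and mitochondrial share, whose part in these differences was not tested.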

How the results depend on the processing

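Of the 9 genes, 6 to 8 and 7 to 8 were called in ganglion cells when each library was left out (double null and Bax het Atoh7 null against Bax null). Ebf2 was lost without double-null replicate 1 and Myt1 gained without replicate 2 in the first, and Klf7 gained without either double-null library in the second. Of all refitted values for single genes, 797 kept direction and call, 45 lost and 29 gained a call, and 17 changed sign. Without TMM, Klf7 and Myt1 in ganglion cells turned to 0.48 and 0.34 (double null against Bax null) and 0.28 and 0.24 (Bax het Atoh7 null against Bax null), and Irx5 in neurogenic cells to 0.45. As the difference from progenitor cells, the neurogenic values turned to -1.47 for Ebf2, 0.054 for Irx2, -0.41 for Klf7 and -0.32 for Myt1 in double null and to -0.30 for Ebf2, -0.24 for Klf7 and -0.37 for Myt1 in Bax het Atoh7 null. Leaving out each library, neurogenic Ebf1 (double null against Bax null) ran from -0.26 (double-null replicate 1) to 0.28, with -0.02 for Bax null replicate 2, neurogenic Irx5 from -0.35 to 0.073 (Bax null replicate 1), and the Irx2 interaction for Bax het Atoh7 null from -1.56 to 0.67 (Bax het Atoh7 null replicate 2). That interaction was 0.45 after thinning. The cause was not tested.

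As the difference from progenitor cells, genes called went from 5580 to 2144 and from 5297 to 2080 in ganglion cells, and from 5518 to 997 and from 5499 to 1116 in neurogenic cells (comparisons of double null and of Bax het Atoh7 null with Bax null), and 3 of the 9 genes were called in neurogenic cells in each comparison, where 5 and 6 had been. When each library was left out, the neurogenic counts ran from 3663 to 5401 and from 3516 to 6053 genes, with 3 to 5 and 3 to 8 of the 9 genes. Without Bax null replicate 2 they were 3663 and 3516 genes and 3 and 3 of the 9.

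Between the Atoh7-null groups, 248 genes were called in ganglion cells, 154 with only 4 libraries, 14 as the difference from progenitor cells, 108 with shared barcodes left out, and 73 to 433 when each library was left out. Of the 9 genes, 1 was called, 2 with RLE factors, 2 by DESeq2, 0 with only 4 libraries, 0 as the difference from progenitor cells, 0 with shared barcodes left out and 0 to 3 when each library was left out. In neurogenic cells 206 genes were called, 517 with no filter, 126 with only 4 libraries, 0 as the difference from progenitor cells, 121 with shared barcodes left out and 7 to 466 when each library was left out, with 0 to 1 of the 9 genes. The replicate block, in a design whose numbers do not pair the libraries, gave 3 of the 9 genes in ganglion cells (Irx3 at 1.58, adjusted p = 0.0394, and Irx5 at 1.47, adjusted p = 0.00366, beside Ebf1) and 7 genes for the interaction, where 3 were called without it.

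For the interaction, genes called went from 2067 to 755 by DESeq2, 912 after thinning and 1262 to 2025 when each library was left out (double null), from 1997 to 707, 829 and 1132 to 2151 (Bax het Atoh7 null), and from 3 to 0 by DESeq2, 8 with no filter, 13 with only 4 libraries, 5 with cells of at least 1000 UMIs and 1 to 9 when each library was left out (between the Atoh7-null groups). Thinning tests fewer UMIs by construction. Shares of cells rose with depth, so 50 of 54 moved with another thinning. Depth limits Irx2, Irx3, Irx5 and Ebf2 in Atoh7-null ganglion cells, with 3 to 56 UMIs per library. It also limits Irx2, Irx3 and Irx5 in Atoh7-null neurogenic cells, with 1 to 14 UMIs per library.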
